A study of Homo sapiens with 12 samples.

Results

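The cystine importer gene SLC7A11 and 9 further genes that make, recycle, break down, conjugate or export glutathione were followed across 12 RNA sequencing libraries of PC3, a human prostate cancer cell line. The 10 genes were named by symbol for their roles, with earlier results of these data known. All were found among 43613 genes in the deposited table: SLC7A11, GCLC, GCLM, GSS, GSR, CHAC1, GGCT, MGST1, GSTP1 and ABCC1. The libraries form 4 groups of 3: cells given silver nanoparticles (AgNPs), cells given DOC, cells given AgNPs and DOC together (COM), and cells given PBS (BLANK). All cells were PC3 labelled WT, so every group is the same single line. DOC appears in the labels only as these letters, and no dose, exposure time or batch was given. Nothing says that replicates were separate cultures, so p-values measure the spread between these libraries, which may be technical.

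Glutathione is a tripeptide of glutamate, cysteine and glycine, and it is the main small thiol of the cell. Cystine enters through an exchanger whose transport subunit is SLC7A11, also called xCT, and is reduced to cysteine, the amino acid that usually limits glutathione synthesis. Glutamate-cysteine ligase (catalytic subunit GCLC, modifier subunit GCLM) makes the first bond and glutathione synthetase (GSS) the next, GSR reduces oxidised glutathione, CHAC1 and GGCT act in its breakdown, transferases attach it to electrophiles and lipid peroxides, and ABCC1 exports glutathione conjugates. Several of these genes are textbook targets of NRF2, which binds antioxidant response elements, and CHAC1 is a target of the ATF4 and ATF3 stress factors.

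Promoter sequence, taken from RefSeq on GRCh38.p14, is shown for the members in which a core motif of those factors was found upstream of the start site. Of these, 2 rose after AgNPs and 1 was not called, where 14.9% of all tested genes were called higher and 16.0% lower. GCLC, in which neither motif was found, also rose, and so did MGST1, with a match only after a start site. Windows were matched for 5 of the 10 genes (GCLC, GCLM, CHAC1, MGST1 and GSTP1). The motifs searched on both strands were TGACNNNGC, the core of an antioxidant response element, and TGATGNAA, the core of an amino acid response element, in windows reaching from 250 bases before to 50 bases after the start. The lines give the 250 bases upstream, 5′ to 3′ on the gene's own strand, with the matched motif in capitals.
GCLM (chr1:93909431-93909680, minus strand): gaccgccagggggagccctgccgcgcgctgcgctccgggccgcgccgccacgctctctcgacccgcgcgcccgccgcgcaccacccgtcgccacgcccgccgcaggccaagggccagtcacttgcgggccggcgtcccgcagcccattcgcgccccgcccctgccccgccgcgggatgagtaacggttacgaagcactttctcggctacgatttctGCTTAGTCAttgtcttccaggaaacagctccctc
CHAC1 (chr15:40953221-40953470, plus strand): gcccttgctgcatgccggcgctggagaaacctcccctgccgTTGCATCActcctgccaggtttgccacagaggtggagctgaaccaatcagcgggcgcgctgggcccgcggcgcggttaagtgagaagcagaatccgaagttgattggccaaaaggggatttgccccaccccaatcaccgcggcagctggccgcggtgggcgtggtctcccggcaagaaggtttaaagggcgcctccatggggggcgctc
GSTP1 (chr11:67583562-67583811, plus strand): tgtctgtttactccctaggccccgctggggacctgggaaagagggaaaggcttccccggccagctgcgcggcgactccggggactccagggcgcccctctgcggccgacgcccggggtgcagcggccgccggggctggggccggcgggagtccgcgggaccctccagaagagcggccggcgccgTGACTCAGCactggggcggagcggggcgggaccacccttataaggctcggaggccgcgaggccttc

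The GCLM match lies on the opposite strand and begins 34 bases before the start, the GSTP1 match lies on the gene's strand and begins 66 bases before it, and both are TGACNNNGC. The CHAC1 match is TGATGNAA on the opposite strand and begins 209 bases before the start. MGST1, with 3 windows, held 1 match to TGACNNNGC after a start site, and the GCLC window held neither motif. Of 35116 promoter windows in the table, 13.3% held TGACNNNGC and 3.62% held TGATGNAA. A match is a description of letters and says nothing of binding.

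Summed counts on linear transcripts per library ranged from 10996446 to 22769479 and differed between groups: 13049868 to 13362290 in AgNPs, 18603100 to 19421873 in DOC, 10996446 to 11069928 in COM and 22573481 to 22769479 in BLANK. A floor of 3 counts corresponds to at most 0.273 CPM (counts scaled to the library total), which covers counting error only. Epithelial keratins were present (KRT8 at 149 to 196 CPM over all libraries), and the prostate gene HOXB13 lay at 295 to 299.9 CPM in AgNPs, 301 to 316 CPM in DOC, 196 to 211 CPM in COM and 367 to 369.7 CPM in BLANK. The prostate gene TMPRSS2, the fibroblast markers DCN and LUM and the immune marker PTPRC stayed at or below 0.104 CPM. KLK3, KLK2 and CD3E were not analysed here. CD68 (37.5 to 54.2 CPM) and COL1A2 (50.3 to 95.8 CPM) were measured in every library. Summed over 5 fibroblast genes, levels were 81.2 to 92.7 CPM in AgNPs, 99.3 to 115 CPM in DOC, 69.3 to 75.7 CPM in COM and 98.6 to 112 CPM in BLANK, and summed over 3 immune genes, nearly all of it CD68, they were 37.9 to 44.0 CPM in AgNPs, 48.0 to 49.2 CPM in DOC, 48.1 to 54.6 CPM in COM and 40.3 to 44.6 CPM in BLANK. The part of depth, HOXB13 and these markers in the results below was not tested. In bulk RNA, fewer cells that express a gene and less of its RNA per cell cannot be told apart.

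Levels below are CPM scaled by trimmed mean of M values (TMM), and fold changes, standard errors (SE) and adjusted p-values come from edgeR's quasi-likelihood test over 19986 genes with Benjamini-Hochberg adjustment. A gene was called changed at an adjusted p below 0.05. Errors after ± on log2 changes are SE, and gene spans are RefSeq positions on GRCh38.p14.

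**Figure D1:**
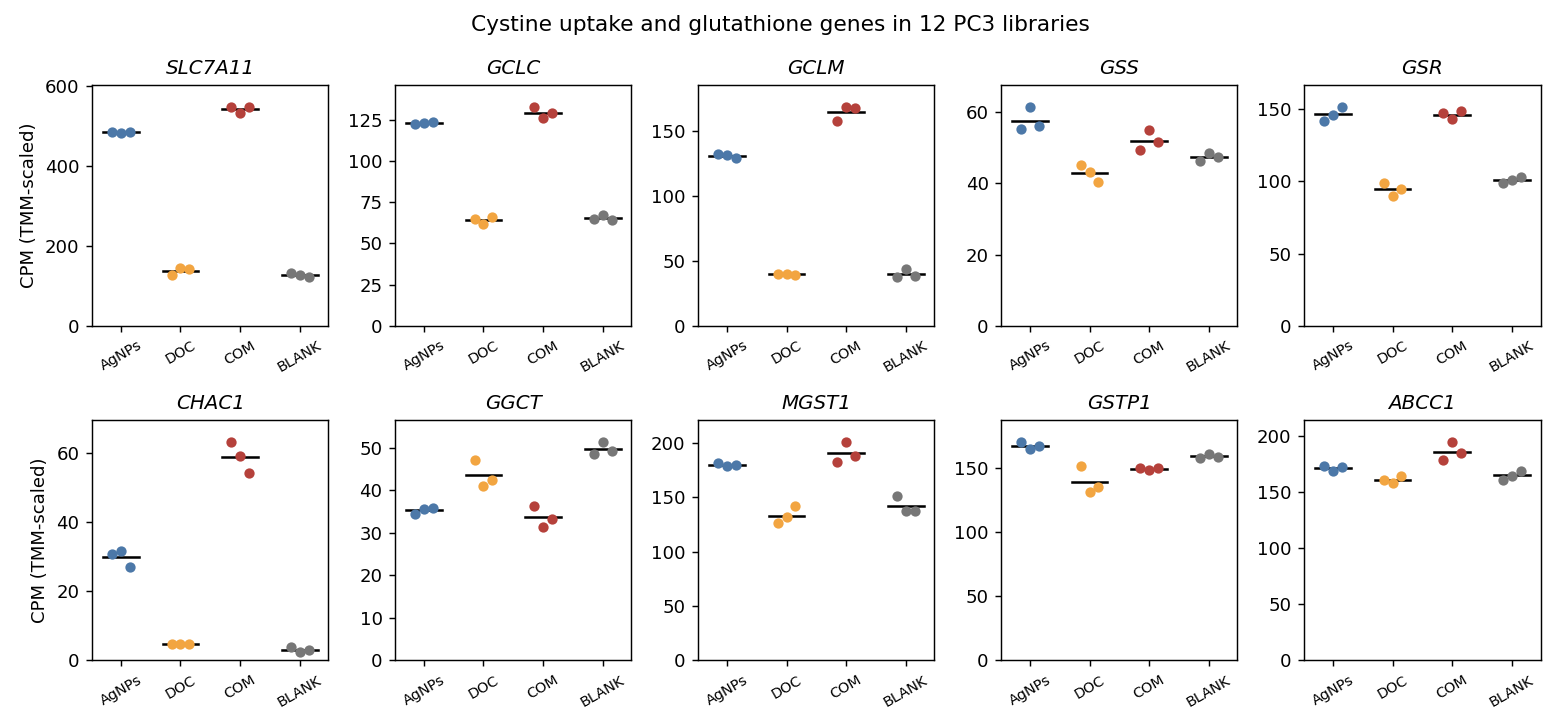
TMM-scaled CPM (y axis, from 0) of the 10 genes in each of the 12 libraries, by group; points are libraries and lines are group means. In SLC7A11, GCLC, GCLM, GSR, CHAC1 and MGST1 all AgNPs and COM libraries lie above all DOC and BLANK libraries. The same holds narrowly in GSS and ABCC1, and in GGCT the AgNPs and COM libraries lie below the others.

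The cystine importer rose with AgNPs, alone and with DOC. SLC7A11 (chromosome 4, 138164097 to 138242349) had 485, 481 and 484 CPM in AgNPs, 126, 144 and 142 CPM in DOC, 547, 531 and 547 CPM in COM, and 132, 126 and 123 CPM in BLANK. The AgNPs and COM libraries lay far above the others, while DOC and BLANK libraries overlapped. SLC7A11 rose 3.80-fold after AgNPs (a log2 change of 1.93 ± 0.04, edgeR adjusted p = 6.2e-28 with 3 libraries in each group) and 4.26-fold after COM (2.09 ± 0.04). COM exceeded AgNPs 1.12-fold (0.17 ± 0.03, edgeR adjusted p = 0.000656). After DOC alone the fitted change was 0.11 ± 0.04 (edgeR adjusted p = 0.0459), and that call ended under 15 of 23 alternatives, with adjusted p up to 0.249. They were DESeq2 (0.155), RLE factors, no filter, a replicate block (0.0743), a fit of only the DOC and BLANK libraries (0.137), and leaving out any AgNPs or COM library, BLANK replicates 2 or 3 or DOC replicates 2 or 3. Over all alternatives the change lay between 0.07 and 0.18, with adjusted p from 7.52e-05 to 0.249. In FPKM (fragments scaled to transcript length and library size), the DOC libraries (31.4 to 33.9) lay above the BLANK libraries (28.7 to 29.05).

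SLC3A2, the heavy chain that pairs with SLC7A11 at the membrane, averaged 300 ± 5.90 CPM in AgNPs, 191 ± 2.59 CPM in DOC, 364 ± 5.56 CPM in COM and 188 ± 8.88 CPM in BLANK (SD, n = 3 each). It rose by 0.68 ± 0.03 after AgNPs and by 0.95 ± 0.03 after COM on the log2 scale, and was at 0.02 ± 0.03 after DOC (edgeR adjusted p = 0.65).

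The catalytic and modifier subunits of glutamate-cysteine ligase both rose with AgNPs, with the higher fold change in the modifier. GCLM (chromosome 1, 93885199 to 93909430), which lowers the feedback of glutathione on the enzyme, had 132, 132 and 129 CPM in AgNPs, 39.9, 39.9 and 39.0 CPM in DOC, 157, 169 and 167 CPM in COM, and 37.7, 43.6 and 38.4 CPM in BLANK. COM libraries lay above AgNPs libraries, and DOC libraries lay within the BLANK range. GCLM rose 3.28-fold after AgNPs (log2 1.71 ± 0.04, edgeR adjusted p = 4.87e-27) and 4.12-fold after COM (2.04 ± 0.04), and COM exceeded AgNPs 1.26-fold (0.33 ± 0.04, edgeR adjusted p = 2.04e-07). DOC alone left it at -0.01 ± 0.05 (edgeR adjusted p = 0.914, 95% interval -0.11 to 0.09).

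GCLC (chromosome 6, 53497341 to 53545101), the subunit that carries the active site, had 123, 123 and 124 CPM in AgNPs, 64.9, 61.6 and 65.9 CPM in DOC, 133, 126 and 129 CPM in COM, and 64.8, 67.2 and 64.3 CPM in BLANK. AgNPs and COM libraries were close to each other and well above DOC and BLANK libraries, which overlapped. GCLC rose 1.88-fold after AgNPs (0.91 ± 0.04, edgeR adjusted p = 8.22e-21) and 1.98-fold after COM (0.99 ± 0.04). COM and AgNPs were not told apart (0.07 ± 0.04, edgeR adjusted p = 0.176), although the 3 COM libraries lay above the 3 AgNPs libraries; with RefSeq rows only the adjusted p was 0.0476.

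Per length, using FPKM (fragments scaled to transcript length and library size) summed over a gene's transcripts, GCLM stood at 0.979 ± 0.0867 of GCLC in AgNPs, 0.553 ± 0.0558 in DOC, 1.19 ± 0.0982 in COM and 0.561 ± 0.0284 in BLANK (SD, n = 3 each). The lowest ratios were 0.880 in AgNPs and 1.09 in COM, against a highest BLANK ratio of 0.579. The exact two-sided permutation test gave p = 0.1 for AgNPs and for COM against BLANK, the smallest value that 3 against 3 libraries can give, and p = 0.8 for DOC.

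**Figure D2:**
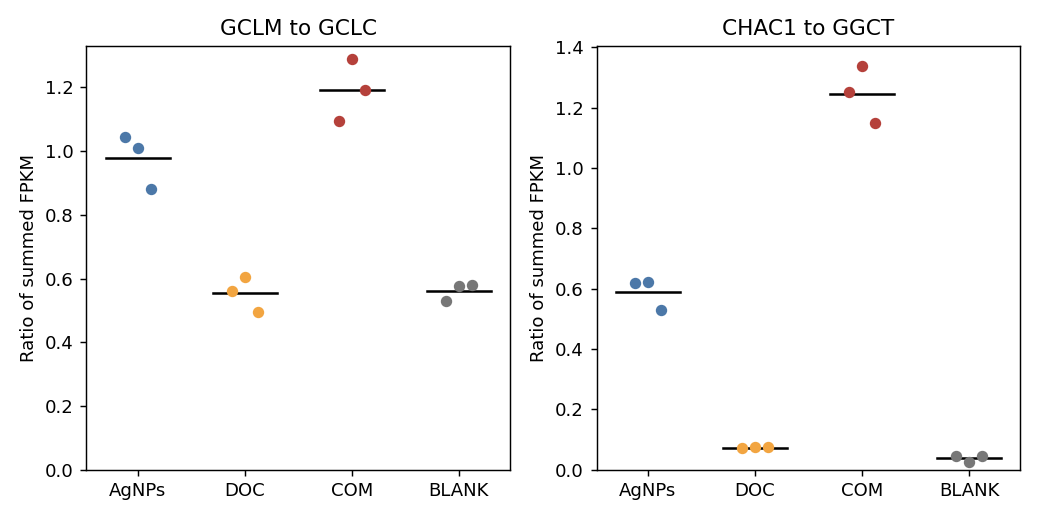
Ratio of summed FPKM in each library (y axis, from 0), GCLM to GCLC on the left and CHAC1 to GGCT on the right, by group; lines are means of 3 libraries. GCLM to GCLC is 0.979 in AgNPs and 1.19 in COM against 0.561 in BLANK, and CHAC1 to GGCT is 0.590 and 1.25 against 0.0398.

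The second synthetic step and the recycling enzyme moved less. GSS (chromosome 20, 34928432 to 34956027), which adds glycine, had 55.3, 61.6 and 56.1 CPM in AgNPs, 45.3, 43.2 and 40.5 CPM in DOC, 49.4, 55.1 and 51.6 CPM in COM, and 46.3, 48.4 and 47.5 CPM in BLANK. AgNPs and COM libraries lay above the BLANK libraries and DOC libraries below them. GSS rose 1.22-fold after AgNPs (0.28 ± 0.05, edgeR adjusted p = 4.1e-05). The smaller GSS changes after DOC (-0.14 ± 0.05, edgeR adjusted p = 0.049) and after COM (0.13 ± 0.05, edgeR adjusted p = 0.0387) were near the threshold. The DOC call ended under 14 alternatives, including DESeq2, library totals alone, limma-trend, RefSeq rows only and leaving out any BLANK or AgNPs library or DOC replicates 2 or 3 (adjusted p up to 0.247), and the COM call under 11, including DESeq2, RLE factors, thinned counts and leaving out BLANK replicates 1 or 3 or COM replicates 2 or 3 (up to 0.288).

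GSR (chromosome 8, 30678066 to 30727846), which uses NADPH to regenerate glutathione, had 142, 146 and 152 CPM in AgNPs, 98.9, 89.9 and 94.5 CPM in DOC, 147, 143 and 148 CPM in COM, and 98.5, 101 and 103 CPM in BLANK. AgNPs and COM libraries overlapped with each other and stood apart from the rest. GSR rose 1.45-fold after AgNPs (0.54 ± 0.04, edgeR adjusted p = 2.71e-14) and 1.45-fold after COM (0.54 ± 0.04), and COM against AgNPs was at 0.00 ± 0.04 (95% interval -0.08 to 0.08). After DOC it was at -0.10 ± 0.04 (edgeR adjusted p = 0.0748), which passed with RLE factors (0.0431), no filter (0.0457) and without DOC replicate 1 (0.00977).

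The 2 cyclotransferase genes moved in opposite directions. CHAC1 (chromosome 15, 40953471 to 40956512), which cleaves reduced glutathione and is a stress-induced gene, had 30.7, 31.7 and 27.1 CPM in AgNPs, 4.85, 4.68 and 4.81 CPM in DOC, 63.2, 59.1 and 54.2 CPM in COM, and 3.74, 2.44 and 3.02 CPM in BLANK. The 4 groups did not overlap, in the order COM, AgNPs, DOC, BLANK. CHAC1 rose 9.73-fold after AgNPs (log2 3.28 ± 0.10, edgeR adjusted p = 5.86e-24), 1.56-fold after DOC (0.64 ± 0.14, edgeR adjusted p = 0.00137) and 19.2-fold after COM (4.26 ± 0.10, edgeR adjusted p = 6.95e-29). COM exceeded AgNPs 1.97-fold (0.98 ± 0.07, edgeR adjusted p = 2.25e-12). These were the highest fold changes among the 10 genes in every one of those comparisons.

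GGCT (chromosome 7, 30496621 to 30504829), which acts on gamma-glutamyl dipeptides, had 34.4, 35.5 and 35.7 CPM in AgNPs, 47.0, 41.0 and 42.4 CPM in DOC, 36.2, 31.4 and 33.3 CPM in COM, and 48.4, 51.4 and 49.1 CPM in BLANK. Every treated library lay below every BLANK library. GGCT fell 1.41-fold after AgNPs (-0.50 ± 0.06, edgeR adjusted p = 8.51e-09) and 1.48-fold after COM (-0.56 ± 0.06). After DOC it fell by 0.19 ± 0.05 on the log2 scale (edgeR adjusted p = 0.00849), a call that ended with limma-trend on FPKM (0.0937) and without BLANK replicate 2 (0.0609) or DOC replicate 2 (0.0831). COM and AgNPs libraries overlapped (-0.07 ± 0.07, edgeR adjusted p = 0.533). Per length, CHAC1 stood at 0.590 ± 0.0526 of GGCT in AgNPs, 0.0734 ± 0.00231 in DOC, 1.25 ± 0.0953 in COM and 0.0398 ± 0.0111 in BLANK.

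Of the conjugating enzymes, the membrane-bound one rose after AgNPs and the cytosolic one was not called. MGST1 (chromosome 12, 16347115 to 16593331), a microsomal transferase with peroxidase activity, had 182, 179 and 179 CPM in AgNPs, 126, 131 and 142 CPM in DOC, 182, 201 and 187 CPM in COM, and 151, 138 and 137 CPM in BLANK. AgNPs and COM libraries lay above all others, and DOC and BLANK libraries overlapped. MGST1 rose 1.27-fold after AgNPs (0.34 ± 0.04, edgeR adjusted p = 1.2e-06) and 1.34-fold after COM (0.42 ± 0.04), and was at -0.09 ± 0.04 after DOC (edgeR adjusted p = 0.154; 0.0222 without DOC replicate 3 and 0.0315 with no filter).

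GSTP1 (chromosome 11, 67583812 to 67586653), the pi-class transferase, had 170.2, 164 and 167 CPM in AgNPs, 151, 131 and 135 CPM in DOC, 149.8, 148 and 149.7 CPM in COM, and 157, 161 and 158 CPM in BLANK. All DOC and COM libraries lay below all BLANK libraries, and all AgNPs libraries above them, by small amounts. The AgNPs difference was not called (0.07 ± 0.04, edgeR adjusted p = 0.153; 0.0471 without DOC replicate 1). GSTP1 fell by 0.19 ± 0.04 after DOC (edgeR adjusted p = 0.000267) and by 0.16 ± 0.04 in COM against AgNPs (edgeR adjusted p = 0.00267). Its call in COM against BLANK (-0.09 ± 0.04, edgeR adjusted p = 0.0491) ended under 15 alternatives, among them each left-out AgNPs, BLANK or COM library (up to 0.22 over all 15). GSTP1 and GCLM both carry a TGACNNNGC match upstream, and their log2 changes after AgNPs were 0.07 and 1.71. GCLC, whose window held neither motif, changed by 0.91. Whether a match goes with a change was not tested.

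ABCC1 (chromosome 16, 15949143 to 16143053), the exporter, had 173, 169 and 173 CPM in AgNPs, 161, 158 and 165 CPM in DOC, 178, 195 and 185 CPM in COM, and 161, 165 and 168 CPM in BLANK. COM libraries lay above all others, and the AgNPs libraries lay just above the BLANK libraries. ABCC1 was not called after AgNPs (0.06 ± 0.03, edgeR adjusted p = 0.205) or DOC (-0.03 ± 0.03, edgeR adjusted p = 0.555), and rose 1.13-fold after COM (0.18 ± 0.03, edgeR adjusted p = 4.51e-05). COM exceeded AgNPs by 0.12 ± 0.04 (edgeR adjusted p = 0.014), a call that ended with DESeq2 (0.062), no filter (0.105), limma-trend (0.0739) and without AgNPs replicate 2 (0.0877) or COM replicate 2 (0.183).

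**Figure D3:**
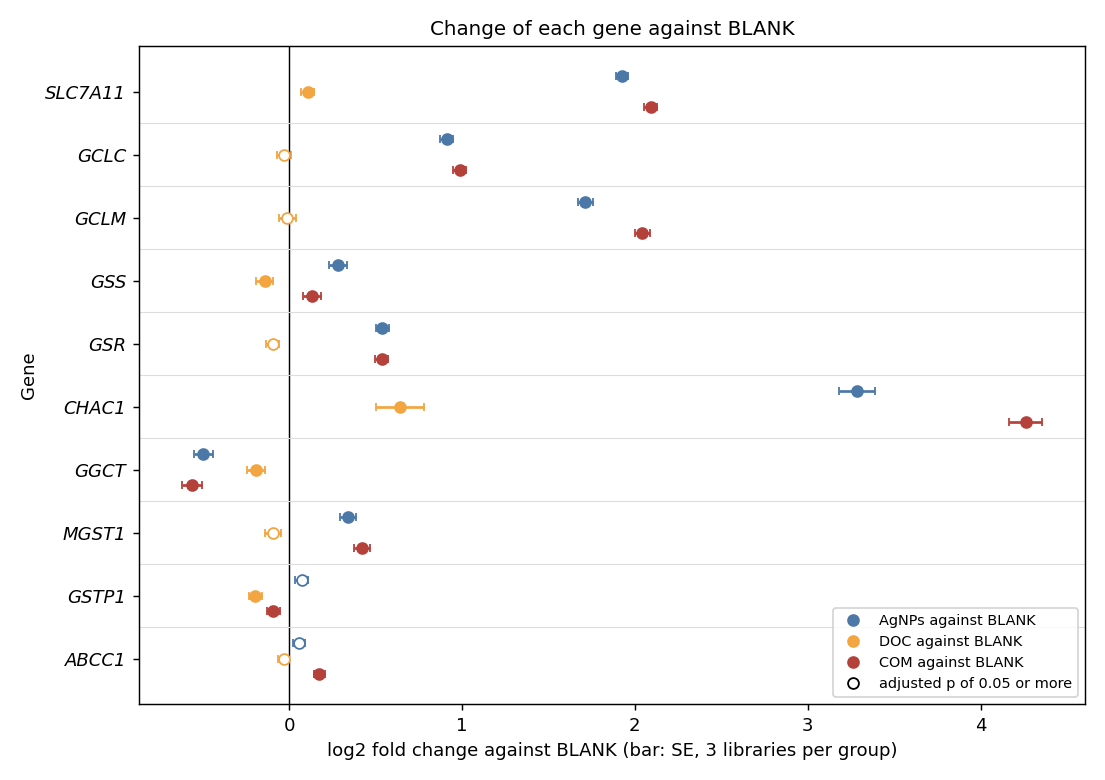
log2 fold change against BLANK (x axis) of each gene (y axis) for AgNPs, DOC and COM; bars are SE of the edgeR fit with 3 libraries per group, and open circles have an adjusted p of 0.05 or more. CHAC1, SLC7A11, GCLM and GCLC lie to the right with AgNPs and COM, while the 10 DOC values lie between -0.19 and 0.64.

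Counted together, 7 of the 10 genes rose and 1 fell after AgNPs, where 30.9% of all tested genes were called, 14.9% higher and 16.0% lower (2983 and 3197 genes, against 1871 and 2659 with DESeq2). After COM 8 rose and 2 fell, where 49.6% of all genes were called, 25.1% higher and 24.5% lower. After DOC 2 rose and 3 fell, with 17.0% of all genes called, 7.16% higher and 9.81% lower. The DOC split depended on the scaling: 1430 genes were called higher and 1961 lower, against 551 and 1740 with DESeq2 and 1823 and 1329 with library totals alone, and among the 10 genes 1 rose and 4 fell with RLE factors. Median log2 changes of the 10 genes were 0.44 after AgNPs, -0.06 after DOC and 0.48 after COM, beside 0.01, 0.00 and 0.03 over all genes. These 3 comparisons share the BLANK libraries. The 10 genes were chosen with earlier results of these data known, so setting their counts and medians beside all genes is description, not a test. Without DOC replicate 2 or BLANK replicate 2 only 2 genes were called after DOC, and without BLANK replicate 3 or any AgNPs library 3 were; without DOC replicate 2 the number of all genes called after DOC was 2134, against 3391.

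Relative to DOC alone, 9 of the 10 genes were higher in COM and GGCT was lower, where 36.6% of all genes were called, 18.1% higher and 18.5% lower. In AgNPs against DOC 9 were again higher and GGCT lower, where 25.6% of all genes were called, 13.7% higher and 11.9% lower (2739 and 2381 genes, against 1978 and 1470 with DESeq2). SLC7A11 was 3.95-fold higher in COM than in DOC (1.98 ± 0.04), CHAC1 12.3-fold (3.62 ± 0.09) and GCLM 4.15-fold (2.05 ± 0.05). The calls of GSTP1 in COM against DOC (0.10 ± 0.04, edgeR adjusted p = 0.0366) and of ABCC1 in AgNPs against DOC (0.09 ± 0.03, edgeR adjusted p = 0.0464) ended under 11 and 13 alternatives, with adjusted p up to 0.248 and 0.324. Libraries whose omission ended the GSTP1 call were DOC replicates 2 and 3 and each COM library, and for ABCC1 they were BLANK replicate 2, AgNPs replicates 1 and 3 and DOC replicate 2.

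Adding DOC to AgNPs raised 4 of the 10 genes and lowered 1, where 21.9% of all genes were called, 9.87% higher and 12% lower (1973 and 2396 genes, against 1083 and 2056 with DESeq2). The 4 were CHAC1, GCLM, SLC7A11 and ABCC1, and GSTP1 was lower. GSS was at -0.15 ± 0.06 (edgeR adjusted p = 0.054), and it passed under 7 alternatives, with adjusted p down to 0.0163; with RLE factors it made the count 4 higher and 2 lower.

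The interaction asks whether DOC acts differently when AgNPs are present, as the COM against AgNPs log2 change less the DOC against BLANK one. It was called for 1 of the 10 genes, where 1.11% of all genes were called, 0.731% positive and 0.375% negative (146 and 75 genes, against 93 and 103 with library totals alone). That gene was GCLM, where DOC made a difference of 0.33 ± 0.04 with AgNPs and -0.01 ± 0.05 without, an interaction of 0.34 ± 0.06 (95% interval 0.21 to 0.47, edgeR adjusted p = 0.00247). The call ended with limma-trend on log2(FPKM + 1), at 0.37 (adjusted p = 0.175). For CHAC1 the corresponding effects were 0.98 ± 0.07 and 0.64 ± 0.14, and the interaction of 0.34 ± 0.16 was not called (95% interval 0.01 to 0.66, edgeR adjusted p = 0.464). SLC7A11 had an interaction of 0.06 ± 0.05 (edgeR adjusted p = 0.778), with a 95% interval of -0.05 to 0.16. MGST1 (0.17 ± 0.06, edgeR adjusted p = 0.274) and ABCC1 (0.15 ± 0.05, edgeR adjusted p = 0.164) were not called either.

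**Figure D4:**
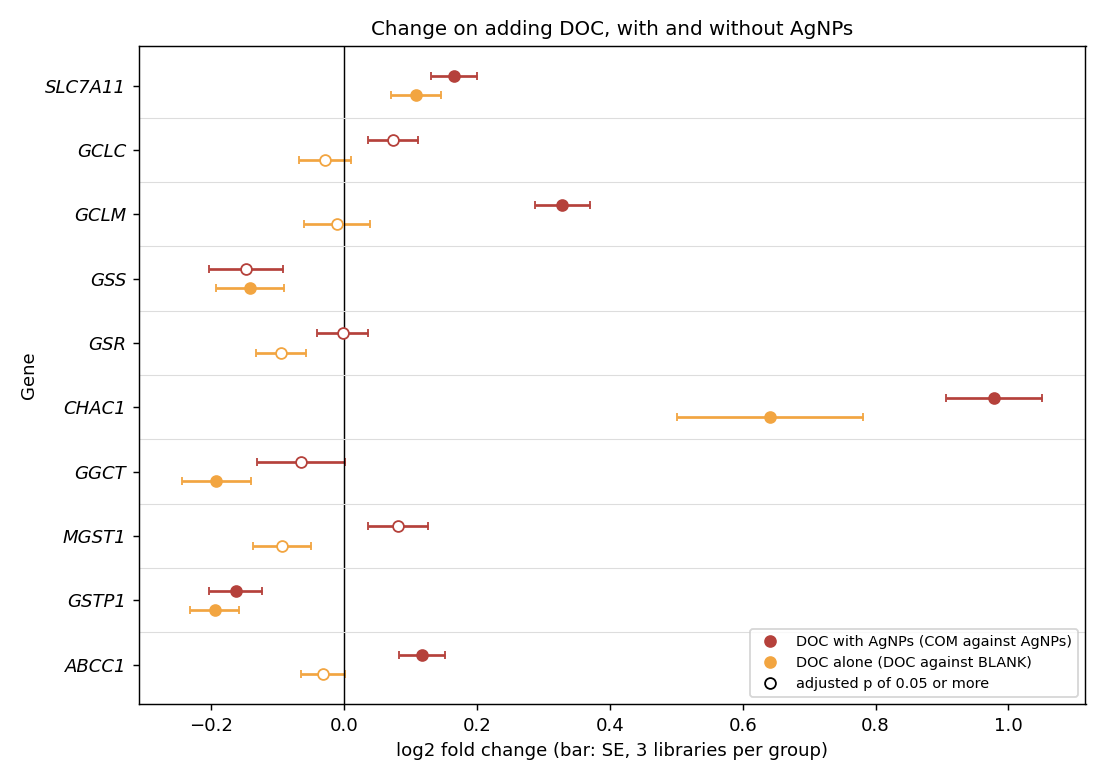
log2 change on adding DOC (x axis) for each gene (y axis), with AgNPs (COM against AgNPs) and alone (DOC against BLANK); bars are SE with 3 libraries per group, and open circles have an adjusted p of 0.05 or more. GCLM lies at 0.33 with AgNPs and -0.01 alone, and it was called for the difference between both effects.

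The order of the genes by level per length shifted. In COM, MGST1 led at 229 ± 9.28 FPKM, GSTP1 had 170.5 ± 0.873 FPKM and SLC7A11 was the third at 135 ± 1.46 FPKM. CHAC1 reached 39.9 ± 3.26 FPKM in COM, overlapping GCLM at 43.3 ± 2.57 FPKM and above GGCT at 32.0 ± 2.19 FPKM. In BLANK, GSTP1 at 181 ± 2.53 FPKM and MGST1 at 169.9 ± 9.73 FPKM led with overlapping libraries, followed by GGCT (47.1 ± 1.63 FPKM), GSR (33.1 ± 0.967 FPKM), SLC7A11 (28.9 ± 0.182 FPKM) and ABCC1 (26.8 ± 0.717 FPKM). GCLM, at 10.2 ± 0.731 FPKM, and CHAC1, at 1.86 ± 0.471 FPKM, were lowest in BLANK.

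RefSeq rows, curated and predicted together, held 88.6% of the counts of GCLM, the lowest share of the 10 genes. The transcript shares are estimates that split reads among overlapping isoforms. GSTP1 had a single row. The main CHAC1 transcript, NM_024111.5, held 94.8 ± 0.0910% of its counts in AgNPs, 90.0 ± 2.91% in DOC, 97.2 ± 0.610% in COM and 76.7 ± 6.36% in BLANK (SD, n = 3 each), the group where the gene's level is lowest. The main SLC7A11 transcript, NM_014331.3, held 57.6 ± 1.07% in AgNPs, 56.2 ± 6.90% in DOC, 49.1 ± 2.84% in COM and 62.4 ± 6.04% in BLANK. Predicted non-coding SLC7A11 transcripts (XR) took 13.2 to 14.6% of its counts in AgNPs, 6.83 to 25.2% in DOC, 17.9 to 23.0% in COM and 7.27 to 15.4% in BLANK, so COM lay above AgNPs and BLANK while DOC libraries spread over all. Of 8 genes whose spans overlap a member, 4 had values. The antisense SLC7A11-AS1 had at most 0.303 CPM, LMO3 over MGST1 at most 1.30 CPM, MYH7B over GSS at most 0.542 CPM and LOC107984869 over ABCC1 at most 0.259 CPM.

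A wider list of 68 genes of cysteine supply and glutathione use, of which 54 were tested, was mixed. It too was chosen with earlier results of these data known. After AgNPs 16 rose, 14 fell and 24 were not called, with a median of 0.01, where 14.9% of all genes were called higher and 16.0% lower. After COM 17 rose, 20 fell and 17 were not called, with a median of 0.04, beside 25.1% higher and 24.5% lower over all genes. After DOC 3 rose, 10 fell and 41 were not called, beside 7.16% higher and 9.81% lower over all genes. Of 9 cysteine supply genes 6 rose and 2 fell after AgNPs, beside the same 14.9% and 16.0%, and 6 rose and 3 fell after COM, beside 25.1% and 24.5%. CTH, which makes cysteine from cystathionine, rose 3.26-fold after AgNPs (1.70 ± 0.11) and 4.72-fold after COM (2.24 ± 0.11), at 13.9 ± 1.19 CPM in AgNPs and 20.1 ± 1.01 CPM in COM against 4.25 ± 0.105 CPM in BLANK. SLC1A4, a neutral amino acid transporter, rose 3.11-fold after AgNPs and 3.83-fold after COM, and the glutamine transporter SLC1A5 1.36-fold and 1.52-fold. CBS, the enzyme before CTH, rose by 0.55 ± 0.07 after AgNPs and fell by 0.51 ± 0.07 after DOC, and it was lower in COM than in AgNPs (-0.34 ± 0.07). CTH was higher after DOC alone (0.48 ± 0.12, edgeR adjusted p = 0.00383), a call lost after thinning to equal depth (0.123) and without DOC replicate 3 (0.052). After DOC the sulfurtransferase MPST (-0.25 ± 0.07) and PTGES2 (-0.22 ± 0.04) fell, and MPST lost its call with limma-trend (adjusted p = 0.0785) and after thinning (0.0524).

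Enzymes that use glutathione went in different directions. GPX1, a selenium-containing peroxidase, had 78.1 ± 0.785 CPM in AgNPs, 196 ± 3.06 CPM in DOC, 71.5 ± 1.31 CPM in COM and 215 ± 1.67 CPM in BLANK, and fell by 1.46 ± 0.03 after AgNPs and by 1.58 ± 0.04 after COM. GPX2, an epithelial peroxidase, was picked out after its values were seen: its counts were 10, 14 and 16 in AgNPs, 0 in each DOC library, 26, 33 and 24 in COM and 0 in each BLANK library. Mean GPX2 lay 7.65-fold above a floor of 3 counts per BLANK library in AgNPs and 18.9-fold above it in COM. Single libraries lay on both sides of these means, and the error of such low counts is not included. The conjugate exporters ABCC3 and ABCC2 rose 2.61-fold and 2.27-fold after AgNPs, and 2.78-fold and 2.63-fold after COM. They belong to 7 transport genes, of which 3 rose and 3 fell in both comparisons. Over all genes 14.9% were called higher and 16.0% lower after AgNPs, and 25.1% and 24.5% after COM. ABCC5 also rose, by 0.12 ± 0.04 after AgNPs and by 0.17 ± 0.04 after COM. The exporter ABCC4 fell by 0.32 ± 0.04 after AgNPs and by 0.37 ± 0.05 after COM, and the mitochondrial carrier SLC25A39 by 0.26 ± 0.03 and by 0.35 ± 0.03. ABCC10 fell after AgNPs (-0.23 ± 0.08) and SLC25A40 after COM (-0.35 ± 0.10). Of 15 genes grouped here as glutathione transferases, PTGES, PTGES2 and LANCL1 included, 2 rose and 2 fell after AgNPs. Of all genes 30.9% were called, so the share called was near that of all genes. The 5 genes grouped here as glutaredoxins, TXNDC12 included, split into 2 higher and 2 lower after COM. Over all genes 25.1% were called higher and 24.5% lower. GLRX rose by 0.68 ± 0.08 and TXNDC12 by 0.33 ± 0.04 after COM, while GLRX5 fell by 0.56 ± 0.04 and GLRX3 by 0.19 ± 0.04. In COM against AgNPs, GLRX was higher (0.32 ± 0.08) and GLRX5 lower (-0.22 ± 0.05). Among 7 breakdown genes 3 fell and 4 were not called after AgNPs, beside 16.0% of all genes called lower, and CHAC2, the paralog of CHAC1, fell by 0.34 ± 0.11 (edgeR adjusted p = 0.0181). In the wider list the interaction was called for 3 of 54 genes, beside 1.11% of all genes. They were SLC1A5 (0.29 ± 0.04), SLC3A2 (0.25 ± 0.05) and MAT2A (-0.24 ± 0.04), which makes S-adenosylmethionine. The SLC3A2 call ended with limma-trend (adjusted p = 0.102).

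**Figure D5:**
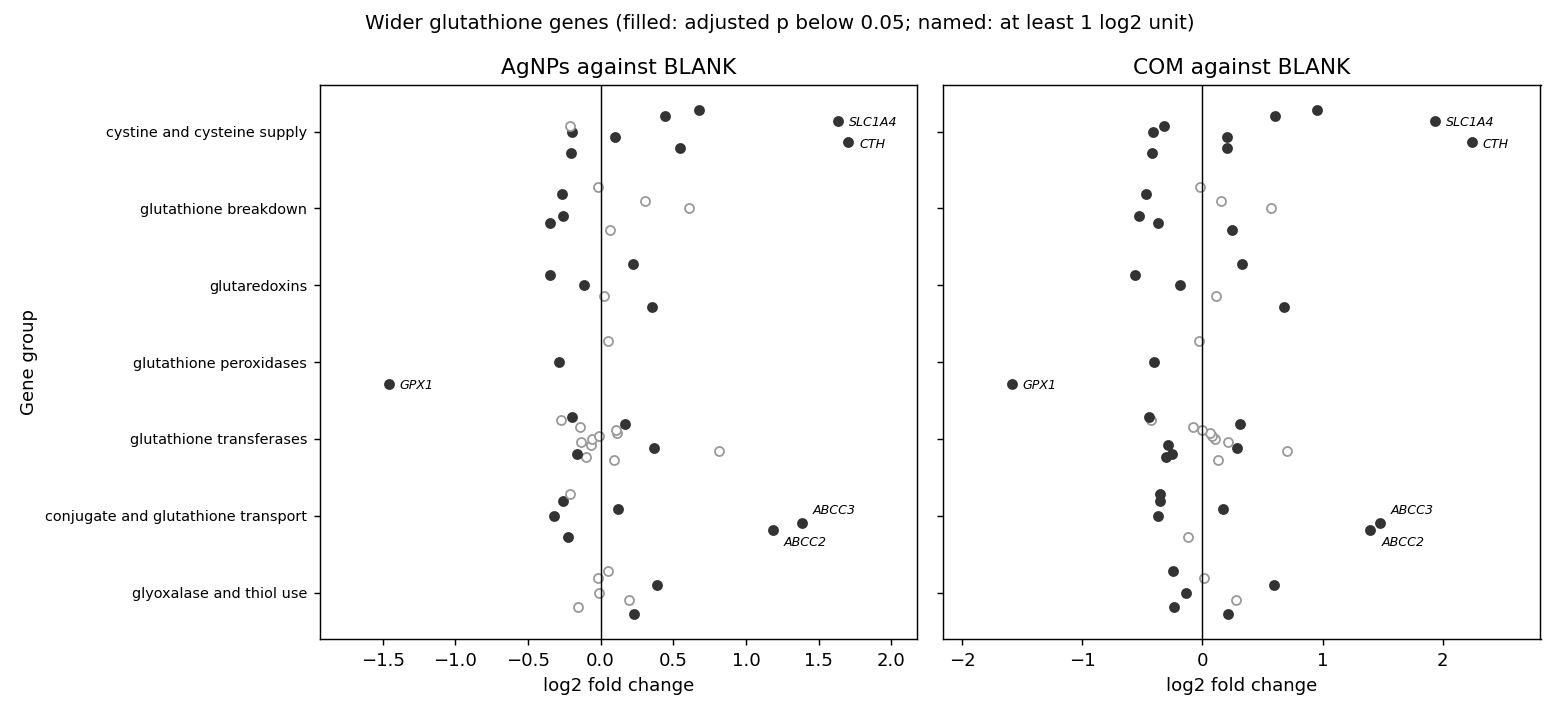
log2 fold change (x axis) of the wider list by gene group (y axis) for AgNPs and COM against BLANK; filled points have an edgeR adjusted p below 0.05, and called genes at 1 log2 unit or more are named. GPX2 is left out because its BLANK libraries hold 0 counts; GPX1 lies far left at -1.46 and -1.58, and CTH, SLC1A4, ABCC3 and ABCC2 lie right of 1.

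Among 10930 genes with a symbol and an average log2 CPM of at least 3, likeness of pattern was measured as the Euclidean distance between the log2 changes against BLANK in AgNPs, DOC and COM. Nearest to SLC7A11 were TNFAIP6 (distance 0.22), NUPR1 (0.27) and MISP (0.28). Nearest to CHAC1 were SESN2 (0.41), OSGIN1 (0.45) and TACR1-AS1 (0.47), each with a smaller COM change than CHAC1, of 3.88, 3.86 and 3.89. MGST1 had closer neighbours, GADD45A (0.017), NECTIN2 (0.023) and POR (0.038), and GSTP1 had PPP1R12C (0.014), HEATR6 (0.026) and PHF2 (0.028).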

How the data were processed

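RNA of PC3 cells was extracted with TRIzol and made into libraries with a BGI mRNA kit, per the labels. HISAT2, Bowtie2 2.2.5, RSEM and GRCh38 are named in the submitters' processing notes, without roles; the strand setting is not given in the sources used here. Expected counts for every transcript, without normalisation, are what the authors deposited as read counts. The deposited expression columns hold FPKM on linear rows, worked out from the values. Circular rows and the authors' mean columns were not used. Expected counts of 177700 linear rows were summed by gene and rounded. RefSeq (GRCh38.p14) gave symbols for 27206 of 43613 genes, and positions.

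Counts were tested with edgeR 4.0.16 (R 4.3.3): TMM, filterByExpr, and 1 robust quasi-likelihood fit over 12 libraries with 7 contrasts; 19986 genes, all 10 members included, passed the filter on low counts. Intervals of log2 changes are 95% intervals of that fit. Alternatives used DESeq2 1.42.0 and limma 3.58.1. The edgeR fit was also run on simulated counts in which all genes and groups had the same spread and few genes changed. These data differ in both respects, so that run does not measure its error here.

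Members and lists were chosen with earlier results of these data known. Named from the wider list were called genes with average log2 CPM of at least 1, ranked by fold change: up to 8 for AgNPs and COM against BLANK, 4 for DOC against BLANK and 3 otherwise; GPX2, CHAC2, TXNDC12, GLRX3, GLRX5, ABCC4, ABCC5, ABCC10, SLC25A39 and SLC25A40 fall outside it and were named after their values were seen. The 3 nearest genes were named for 4 members.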

Additional observations from a re-analysis of the deposited data

Results flagged for a closer look

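GCLM was the 1 of the 10 genes whose response to DOC differed between cells with and without AgNPs by a test of the difference itself. The interaction was 0.34 ± 0.06 on the log2 scale (edgeR adjusted p = 0.00247): 157, 169 and 167 CPM in COM against 132, 132 and 129 CPM in AgNPs, and 39.9, 39.9 and 39.0 CPM in DOC against 37.7, 43.6 and 38.4 CPM in BLANK. Over the alternatives it lay between 0.27 and 0.38, with adjusted p from 9.59e-05 to 0.202.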

How the results depend on the processing

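Of 70 results on the 10 genes, 50 kept direction and call under every alternative run, and of 1600 comparisons of a result with an alternative 91 lost a call, 15 gained one and 26 changed sign. The SLC7A11, GCLC, GCLM, GSR, CHAC1, GGCT and MGST1 calls in AgNPs and COM against BLANK held throughout. All changes of sign were in values near 0 that were not called, and their cause was not tested. GCLC after DOC was at 0.0041 and 0.0042 with limma-trend on log2(FPKM + 1) and log2(FPKM + 0.1), and from -0.053 to 0.00019 with 1 library left out. GCLM after DOC was at 0.015 with library totals, 0.023 with RefSeq rows, 0.021 after thinning and from -0.045 to 0.059 with 1 library left out. GSR in COM against AgNPs was at 0.00052 with a 1 CPM filter, 0.00029 with only those libraries, 0.023 with limma-trend at either pseudocount (0.0227 and 0.0231), 0.0012 with RefSeq rows, and from -0.029 to 0.017 with 1 library left out. The GSS interaction was at 0.00067 with RLE factors, 0.0021 with RefSeq rows, 0.073 after thinning and from -0.051 to 0.037 with 1 library left out, and that of GSTP1 from -0.0074 to 0.096.

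Total counts of calls moved by over 1.5 times in DOC against BLANK and in the interaction, and the cause was not tested. Counts in 1 direction moved so in other comparisons with DESeq2: 1871 genes higher in AgNPs against BLANK (against 2983), 1083 higher in COM against AgNPs (against 1973) and 1470 lower in AgNPs against DOC (against 2381). So did 839 higher with RefSeq rows in DOC against BLANK (against 1430), and in the interaction 142 negative with no filter, 48 with RefSeq rows and 44 with DESeq2 (against 75). After DOC, 3 genes of the 10 were called with DESeq2, with only those libraries and with limma-trend at either pseudocount, and 2 to 6 with 1 library left out, against 5. Over all genes DOC had 1061 and 1103 calls with limma-trend, 2208 after thinning and 2134 to 4027 with 1 library left out, against 3391. The interaction had 146 calls with DESeq2, 54 and 49 with limma-trend and 115 to 266 with 1 library left out (145 without BLANK replicate 3, 144, 115 and 131 without AgNPs replicates 1, 2 and 3, 119 and 136 without COM replicates 2 and 3), against 221, and with limma-trend 0 of the 10 genes.

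No pairing by replicate number was seen: deviations of same-numbered libraries correlated at -0.14 to 0.14, and those of other numbers at -0.16 to 0.14. Of 12 libraries, 6 correlated best with their own number, and a weak pairing could be missed. With a replicate block, SLC7A11 after DOC (0.11, adjusted p = 0.0743) and ABCC1 in AgNPs against DOC (0.09, adjusted p = 0.0548) lost their calls, and no count moved by over 1.5 times. With other scalings, the median over genes of the shift in log2 change was at most 0.031 in size. With no filter it reached -0.0486 in COM against BLANK. Precision is limited by 3 libraries per group and by depth, which was lowest in COM. Scatter of counts between replicates (chi-square per degree of freedom) was 3.67 in DOC, 3.05 in BLANK, 1.81 in AgNPs and 1.53 in COM. That measure also grows with depth, and the fit shares its spread over all 12 libraries. A fit of only the libraries compared was not run for the interaction, which uses all of them.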
